A study of Caenorhabditis elegans with 12 samples.

Results

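The heterochronic genes lin-14, lin-28, hbl-1, lin-41, lin-46 and lin-29 of C. elegans were followed across cells sorted from wild type and che-2 larvae. They were taken by name, as 6 of the 46726 genes in the deposited count table. All 6 had counts in each of the 12 RNA sequencing libraries, and all 6 passed the filter on low counts that kept 16690 genes. Heterochronic genes set the order of cell fates through the larval stages. lin-14, lin-28, hbl-1 and lin-41 act earlier and are turned down in sequence by the lin-4 and let-7 family microRNAs. LIN-28 blocks the maturation of let-7, LIN-46 acts against the lin-28 and hbl-1 side of the pathway, and LIN-29 drives the larval-to-adult switch of the skin. The question taken up here was whether the transcripts of these genes differed between genotypes, between fractions and between cultures.

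Both genotypes carried the reporter F16F9.3pro::dsRed, whose promoter marks the amphid sheath (AMsh) glia, the cells that ensheathe the endings of the amphid sensory neurons. The wild type strain was OS4079. The mutant strain was OS11549, with the allele e1033 of che-2, a gene of intraflagellar transport that is needed for normal sensory cilia. For each genotype 3 replicates were grown in liquid with E. coli HB101 at 20 °C for 36 to 42 h after L1 arrest, which the labels give as L3 and L4 larvae, so a culture could hold more than 1 stage. After dissociation, flow sorting split every culture into a dsRed-positive part, called AMsh below (0.1 to 0.4% of events), and a dsRed-negative part, called non-AMsh, which holds the rest of the animal. This gave 4 groups of 3 libraries, each group with 1 library under each of the codes E30, E35 and E36. A genotype under 1 code is called a culture below, 6 in all, although the labels give the codes only as replicates and do not state separate cultures. The p values measure the spread between these samples, which may be partly technical.

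Library totals were 15420762 to 26019499 counts. Levels are given as CPM, counts relative to library sizes scaled by the trimmed mean of M values. Counting alone limits a gene with no count to 0.115 to 0.195 CPM (3 counts of the total). Among the libraries, 2 stood apart: wild type AMsh E30 had 14101 genes with a count and che-2 AMsh E35 had 15711, against 17555 to 19298 in the others. The larger differences that rest on them are also given without them. The summed level of 5 AMsh markers was 77.1 to 148 CPM in the non-AMsh libraries, 824 to 3454 CPM in wild type AMsh and 366 to 3031 CPM in che-2 AMsh, and 4 of the 5 were higher in AMsh at an adjusted p under 0.05 in each genotype. Of 26 markers of hypodermis, neurons, muscle, intestine, germ line and sperm, 0 were lower and 0 higher in AMsh in either genotype with edgeR, and 0 with DESeq2. At an unadjusted p under 0.05 there was 1 in each genotype, higher in AMsh: rab-3 in wild type (log2 fold change 1.03) and unc-54 in che-2 (0.84). Over all genes the shares were 0.437% in wild type and 0.593% in che-2 with edgeR, 1.05% and 1.10% with DESeq2, and 3.81% and 2.98% unadjusted. Transcripts of other tissues were present in the AMsh libraries by level. The summed body muscle markers were at 2835 to 3746 CPM in wild type AMsh and 2967 to 4685 CPM in che-2 AMsh. The part of other tissues in the AMsh levels of the heterochronic genes was not tested. The che-2 transcript was at 0 to 3.77 CPM in wild type and 0.281 to 12.5 CPM in che-2, and it was not used to check the genotype because the labels do not give the lesion of the allele.

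The annotation limits how some of these genes can be read. lin-14 (WBGene00003003) lies on chromosome X of WBcel235 at 11468500 to 11484267, plus strand. Its deposited exons cover 52.5% of the 3665 exon bases in the WBcel235 gene annotation used here for comparison. Its level thus misses reads from the other 1742 bases. lin-28 (WBGene00003014) lies on chromosome I at 8407802 to 8410804, minus strand, and 88.2% of its annotated exon bases were counted. hbl-1 (WBGene00001824) lies on chromosome X at 5822277 to 5827691, plus strand (95.6%). lin-41 (WBGene00003026) lies on chromosome I at 9334850 to 9342496, minus strand (98.8%). lin-46 (WBGene00003031) lies on chromosome V at 12968853 to 12970732, plus strand, and lin-29 (WBGene00003015) on chromosome II at 11917642 to 11935343, minus strand, both with 100% of their annotated exon bases. lin-29 shares 678 exon bases with hmg-12, which runs on the opposite strand. Without a stated strand setting, reads of lin-29 and hmg-12 cannot be told apart there, so the lin-29 level is uncertain. Counts are per gene and do not separate isoforms.

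lin-14 encodes a nuclear protein that promotes the fates of the first larval stage and is the classic target of lin-4. Values are listed in the order of the codes, E30 first and E36 last. In the non-AMsh fraction its level was 3.74, 3.01 and 1.43 CPM in wild type and 1.51, 2.00 and 1.36 CPM in che-2. In the AMsh fraction it was 0.401, 1.36 and 2.41 CPM in wild type and 1.43, 0.112 and 1.12 CPM in che-2. The genotypes overlapped in both fractions. The lowest value, in che-2 AMsh E35, rested on 2 counts. The fitted log2 fold change of che-2 against wild type was −0.75 (SE 0.98, edgeR adjusted p = 0.885) in non-AMsh and −0.64 (SE 0.98, adjusted p = 0.837) in AMsh. In bulk samples, fewer cells that express a gene and less RNA per cell cannot be told apart, here and in all that follows.

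lin-28 encodes an RNA-binding protein of the second-stage programme. Its level in non-AMsh was 3.35, 1.79 and 3.01 CPM in wild type and 1.97, 3.95 and 2.58 CPM in che-2, with no separation of the genotypes. In AMsh it was 0.223, 3.58 and 5.87 CPM in wild type and 3.34, 0.619 and 4.55 CPM in che-2. The low values were again those of wild type E30 (5 counts) and che-2 E35 (11 counts), and the remaining 4 AMsh libraries all stood above 3 CPM. Between genotypes it differed by 0.06 on the log2 scale (SE 0.99, edgeR adjusted p = 0.995) in non-AMsh and −0.18 (SE 0.99, adjusted p = 0.962) in AMsh. Its intervals of −2.10 to 2.22 and −2.34 to 1.97 leave room for a change of either sign.

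hbl-1 encodes a Hunchback-like zinc finger factor that is repressed by let-7 family microRNAs. In non-AMsh its level was 4.89, 5.89 and 4.72 CPM in wild type and 3.01, 3.77 and 4.78 CPM in che-2, and the groups overlapped only through che-2 E36, which was just above wild type E36. In AMsh it was 0.134, 4.53 and 10.7 CPM in wild type, where E30 had 3 counts, and 2.10, 0.506 and 1.81 CPM in che-2. Among wild type AMsh libraries the highest was thus far above the che-2 range and the lowest below it. In the fit, the log2 fold change was −0.42 (SE 1.01, edgeR adjusted p = 0.959) in non-AMsh and −1.80 (SE 1.04, 95% interval −4.07 to 0.47, adjusted p = 0.507) in AMsh. The AMsh value was −0.66 without wild type E36, −2.37 without wild type E30 and −1.97 without both libraries that stood apart.

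lin-41 had the most counts of the 6 genes. It encodes a TRIM-NHL RNA-binding protein, a target of let-7 that holds back lin-29 and mab-10. Its level in non-AMsh was 24.4, 13.7 and 12.6 CPM in wild type (mean 16.9 ± 6.51, SD, n = 3) and 3.48, 9.90 and 5.77 CPM in che-2 (6.38 ± 3.26). Every che-2 library was below every wild type library. In AMsh the level was 4.50, 16.4 and 12.8 CPM in wild type (11.2 ± 6.10) and 2.54, 5.68 and 4.95 CPM in che-2 (4.39 ± 1.64). There the groups overlapped, because wild type E30 was below che-2 E35 and E36.

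The lin-41 difference was of similar size in both fractions and did not pass the test in either. The log2 fold change was −1.40 in non-AMsh (SE 0.59, 95% interval −2.70 to −0.11, unadjusted p = 0.0360, adjusted p = 0.426 by edgeR's quasi-likelihood test with Benjamini-Hochberg adjustment). In AMsh it was −1.36 (SE 0.59, 95% interval −2.65 to −0.06, unadjusted p = 0.0414, adjusted p = 0.368). It stayed negative in each of the 19 alternatives run per fraction, between −1.92 and −1.04 in non-AMsh with adjusted p of 0.163 to 1.00, and between −1.96 and −0.98 in AMsh with adjusted p of 0.163 to 0.715. Without the 2 libraries with few genes detected, the AMsh groups no longer overlapped, since what remained was 16.4 and 12.8 CPM against 2.54 and 4.95 CPM.

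lin-46 encodes a gephyrin-like scaffold protein whose expression LIN-28 restrains. In non-AMsh its level was 3.00, 6.74 and 0.977 CPM in wild type and 1.10, 2.89 and 4.97 CPM in che-2, so the ranges overlapped. In AMsh it was 19.3, 4.41 and 3.16 CPM in wild type and 1.38, 0.112 and 1.66 CPM in che-2. All 3 che-2 AMsh libraries were below all 3 wild type AMsh libraries. The extremes were the libraries that stood apart: wild type E30 had 433 counts of lin-46 and che-2 E35 had 2.

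With all libraries, lin-46 in AMsh had the largest genotype difference of the 6 genes, and its call depended on the tool. The log2 fold change was −3.07 (SE 1.11, 95% interval −5.49 to −0.65, unadjusted p = 0.0170, edgeR adjusted p = 0.271). DESeq2 gave −3.21 with an adjusted p of 0.0397. Without wild type AMsh E30 the edgeR value was −1.83 (adjusted p = 0.559), smaller than that of hbl-1 without the same library (−2.37), and without both libraries that stood apart it was −1.31 (adjusted p = 0.650). In non-AMsh the log2 fold change was −0.25 (SE 1.03, edgeR adjusted p = 0.979).

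lin-29 encodes a zinc finger factor that triggers the terminal steps of seam cell development at the last moult. In non-AMsh its level was 7.58, 15.7 and 9.69 CPM in wild type and 6.09, 5.54 and 5.49 CPM in che-2. All che-2 libraries were below all wild type libraries, and they lay within a narrow range (5.70 ± 0.333 CPM, SD, n = 3). In AMsh the level was 0.624, 11.2 and 9.45 CPM in wild type and 8.07, 11.4 and 6.14 CPM in che-2, which overlapped. Wild type AMsh E30 was the low value, with 14 counts.

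The log2 fold change of lin-29 was −0.95 in non-AMsh (SE 0.76, 95% interval −2.60 to 0.70, edgeR adjusted p = 0.763) and 0.27 in AMsh (SE 0.75, adjusted p = 0.917). The AMsh value was −0.54 without the 2 libraries that stood apart. hmg-12, which overlaps lin-29, had 6367 counts over the 12 libraries against 2126 for lin-29. Its log2 fold change was 0.25 in non-AMsh (edgeR adjusted p = 0.933) and 0.44 in AMsh (adjusted p = 0.753). In wild type AMsh E30 hmg-12 was also at its lowest, 7.13 CPM against 18.0 to 44.4 CPM elsewhere. Its part in the lin-29 level was not tested.

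**Figure D1:**
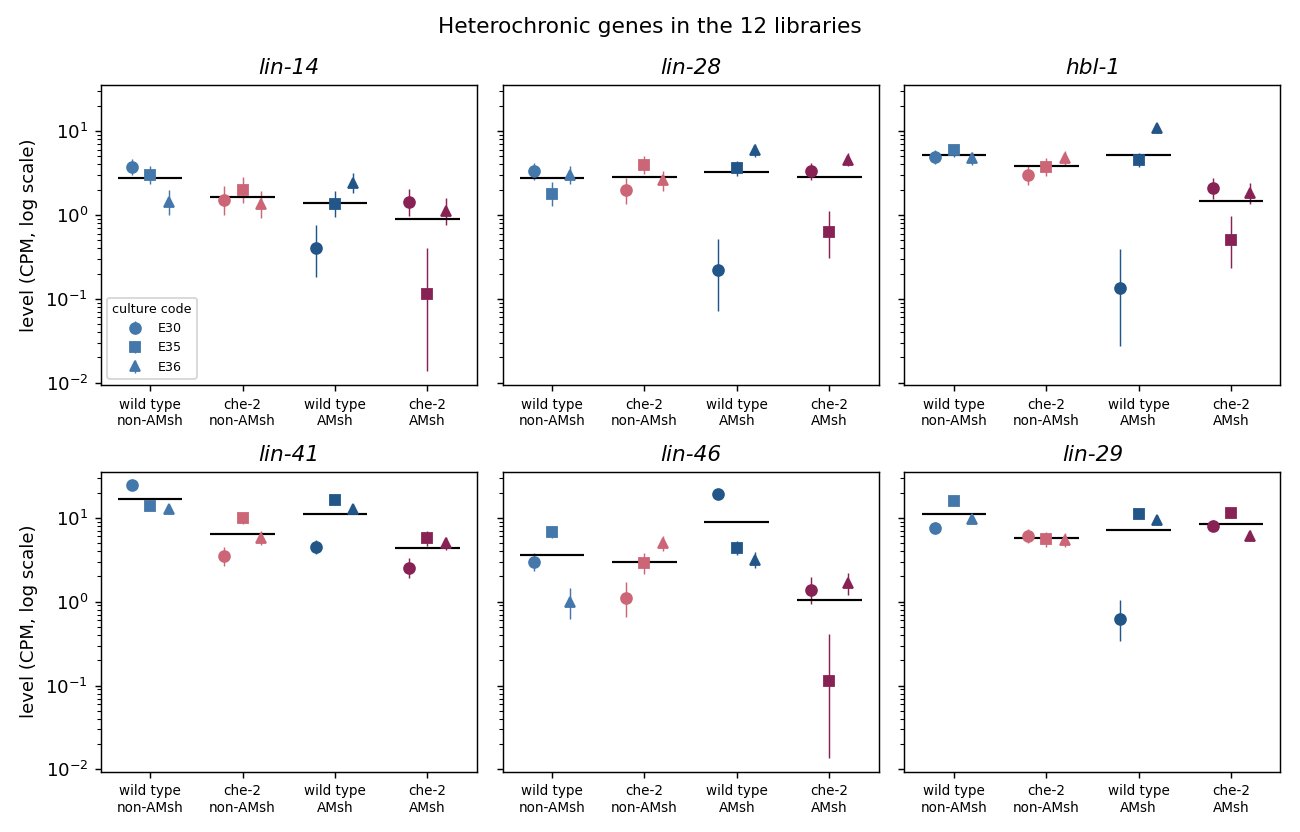
Level of each heterochronic gene (CPM, log axis) in the 12 libraries, grouped by genotype and fraction, with the 95% counting interval of each library, the mean of 3 as a black bar and the culture code as the symbol. For lin-41 the non-AMsh che-2 libraries sit at 3.48 to 9.90 CPM, all below the wild type libraries at 12.6 to 24.4 CPM. The lowest points of lin-14, lin-28, hbl-1 and lin-29 belong to wild type AMsh E30 or che-2 AMsh E35.

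Across the 6 genes, 0 passed the edgeR test between genotypes in the non-AMsh fraction, where 0.144% of all genes tested passed, and 0 in the AMsh fraction, where 0.461% passed. At an unadjusted p under 0.05, 1 of 6 (lin-41) was counted in non-AMsh against 10.3% of all genes, and 2 of 6 (lin-41 and lin-46) in AMsh against 12.8%. DESeq2 called 0 of 6 in non-AMsh, where it called 4.51% of all genes, and 1 of 6 (lin-46) in AMsh, where it called 5.29%. The groups did not overlap for 2 of 6 in non-AMsh (lin-41 and lin-29, both lower in che-2) against 22.2% of all genes, and for 1 of 6 in AMsh (lin-46, lower in che-2) against 17%. With 6 genes, each of these shares rests on 0, 1 or 2 genes. Both earlier-acting and later-acting genes had negative values: 5 of 6 in each fraction, with a median log2 fold change of −0.58 in non-AMsh and −0.999 in AMsh, beside −0.01 and 0.12 over all genes tested.

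**Figure D2:**
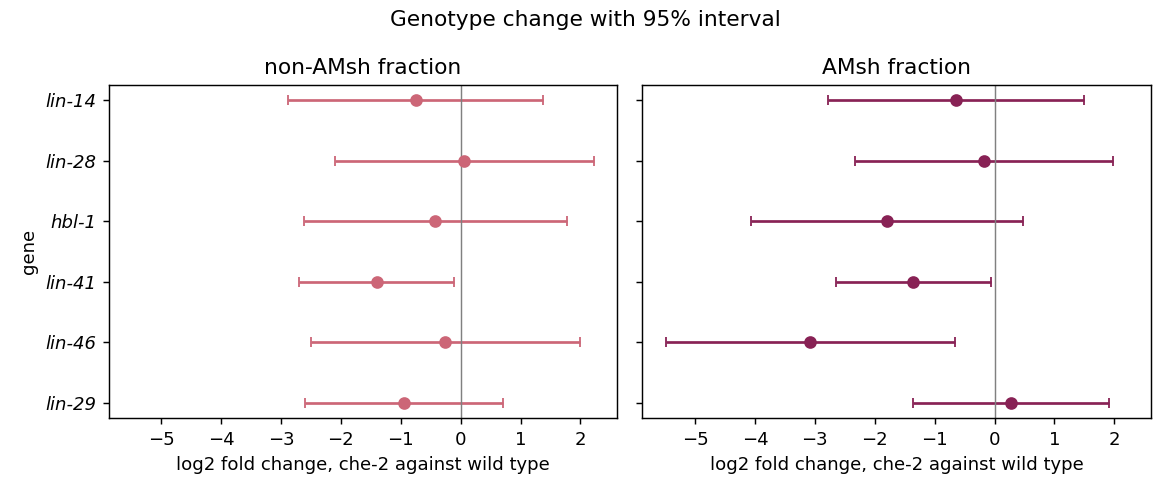
Log2 fold change of che-2 against wild type for the 6 genes in the non-AMsh (left) and AMsh (right) fractions, with 95% intervals from the edgeR fit. The intervals of lin-41 in both fractions and of lin-46 in AMsh lie below 0 before adjustment for the 16690 genes tested, and those of the other genes include 0.

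Levels of different genes were compared per kilobase of deposited exon length. In wild type non-AMsh the order of mean levels was lin-29 (4.76 ± 1.83 CPM per kb, SD, n = 3), lin-41 (3.55 ± 1.37), lin-46 (2.61 ± 2.13), lin-28 (2.03 ± 0.613), lin-14 (1.42 ± 0.617) and hbl-1 (1.21 ± 0.147). Each neighbouring pair in that order differed by less than the SD of at least 1 of the genes. In che-2 non-AMsh the mean level per kb of lin-41 was 1.34 ± 0.685, below lin-29 (2.47 ± 0.144), lin-46 (2.18 ± 1.41) and lin-28 (2.12 ± 0.758). In wild type AMsh lin-46 had the highest mean (6.54 ± 6.56 CPM per kb), an SD as large as the mean because of culture E30. In che-2 AMsh lin-29 had the highest (3.70 ± 1.16) and hbl-1 the lowest (0.343 ± 0.197). The lin-14 value per kb uses the deposited exons.

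Between fractions, 0 of the 6 genes passed the edgeR test in wild type (0.437% of all genes did) and 0 in che-2 (0.593%). At an unadjusted p under 0.05 there were 0 of 6 in wild type, against 3.81% of all genes, and 0 of 6 in che-2, against 2.98%. DESeq2 called 0 of 6 in wild type (1.05% of all genes) and 0 of 6 in che-2 (1.10%). In wild type the fractions overlapped for all 6 genes, where 8.65% of all genes did not overlap. In che-2 they did not overlap for 2 of 6, against 8.08% of all genes: hbl-1 was lower in AMsh (log2 fold change −1.38, SE 1.03, edgeR adjusted p = 1.00) and lin-29 higher (0.58, SE 0.76, adjusted p = 1.00). The other values were −0.97 in wild type and −0.86 in che-2 for lin-14, 0.25 and 0.01 for lin-28, −0.59 and −0.54 for lin-41, and 1.33 and −1.49 for lin-46, all with an edgeR adjusted p of 1.00. Without wild type AMsh E30 the wild type value of lin-46 was 0.087. In wild type hbl-1 was at −0.01 and lin-29 at −0.64, also with an adjusted p of 1.00. With the culture as a block, which compares the fractions sorted from the same culture, the count of called heterochronic genes was again 0 in both genotypes.

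Within a culture, the difference between fractions was given as log2 AMsh minus non-AMsh level, with a prior count of 2. The lin-28 value was 0.97 and 0.94 in wild type E35 and E36 and 0.74 and 0.80 in che-2 E30 and E36, but −3.45 in wild type E30 and −2.51 in che-2 E35. So lin-28 was higher in AMsh in the 4 cultures whose AMsh library had the usual number of genes detected, and lower in the other 2. The hbl-1 value was −4.47, −0.37 and 1.17 in wild type and −0.51, −2.69 and −1.36 in che-2. For wild type E30 the 3 AMsh counts gave a ratio of 0.0273 to non-AMsh, with a counting interval of 0.00555 to 0.0820. hbl-1 was below its own non-AMsh library in all 3 che-2 cultures and in 2 of 3 wild type cultures.

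For lin-14 the value was −2.96, −1.10 and 0.72 in wild type and −0.07, −3.36 and −0.26 in che-2. The ratio behind the che-2 E35 value, from 2 AMsh counts, was 0.0561 with a counting interval of 0.00653 to 0.219. lin-41 had values of −2.41, 0.26 and 0.03 in wild type and −0.44, −0.79 and −0.22 in che-2. Apart from wild type E30, the fractions of a culture differed by 0.79 or less for lin-41. lin-46 was at 2.65, −0.60 and 1.61 in wild type and 0.30, −3.87 and −1.53 in che-2, with both signs in each genotype. Its che-2 E35 ratio, from 2 AMsh counts, was 0.0390 with a counting interval of 0.00459 to 0.148. lin-29 was at −3.42, −0.49 and −0.04 in wild type and 0.40, 1.03 and 0.16 in che-2. It was the only one of the 6 with 1 sign in every wild type culture and the other sign in every che-2 culture. For E36 the counting interval of the lin-29 ratio included 1 in both genotypes.

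**Figure D3:**
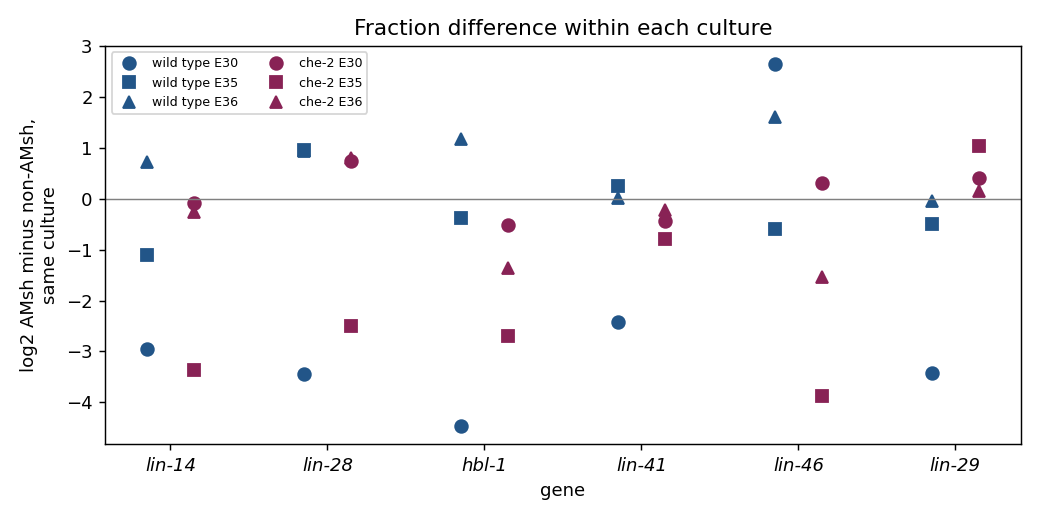
Log2 AMsh minus non-AMsh level of each gene within each culture (symbols: culture codes; blue wild type, red che-2). Wild type E30 lies far below 0 for lin-14, lin-28, hbl-1, lin-41 and lin-29 and above 0 for lin-46, and che-2 E35 lies far below 0 for lin-14, lin-28, hbl-1 and lin-46.

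The genotype change in AMsh minus that in non-AMsh was tested as the interaction term. It passed for 0 of 6 genes, and for 0% of all 16690 genes by edgeR. At an unadjusted p under 0.05 it counted 0 of 6 and 1.68% of all genes, and DESeq2 called 0 of 6 and 0.0240% of all genes. The fitted difference was −2.82 for lin-46 (SE 1.48, edgeR unadjusted p = 0.0813), −1.38 for hbl-1 (SE 1.44), 1.22 for lin-29 (SE 1.07), −0.24 for lin-28, 0.10 for lin-14 and 0.05 for lin-41 (SE 0.83), all with an adjusted p of 1.00. Leaving out 1 library moved some of these widely: lin-46 was at −1.58 without wild type AMsh E30, and hbl-1 at −0.24 without wild type AMsh E36. Without both libraries that stood apart lin-46 was at −1.06, hbl-1 at −1.55 and lin-29 at 0.41. No genotype change that differed between fractions passed the test, and the intervals are wide, from −6.04 to 0.41 for lin-46 and from −1.77 to 1.86 for lin-41.

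Ratios between genes of 1 library do not depend on the scaling of libraries. The log2 ratio of lin-29 to lin-41, per kb, in AMsh was −1.77, 0.49 and 0.60 in wild type and 2.70, 2.05 and 1.35 in che-2. All che-2 AMsh libraries were above all wild type AMsh libraries, with a difference of means of 2.26. In non-AMsh it was −0.64, 1.25 and 0.67 in wild type and 1.84, 0.21 and 0.97 in che-2, which overlapped (difference 0.58). The AMsh separation does not need culture E30, since wild type E35 and E36 were also below the che-2 range, but without that library the difference was 1.49. No test was made on ratios, as the genes were picked with results of these data known, and the lin-29 part carries the hmg-12 overlap.

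The log2 ratio of lin-46 to lin-28, per kb, in AMsh was 6.27, 0.26 and −0.92 in wild type and −1.30, −2.24 and −1.48 in che-2. Again the groups did not overlap, here with che-2 lower (difference of means −3.54). That size rests on wild type E30: without it the difference was −1.34, and without both libraries that stood apart −1.06. In non-AMsh it was −0.19, 1.86 and −1.64 in wild type and −0.86, −0.48 and 0.91 in che-2, with overlap. The ratios of lin-29 to lin-14, to lin-28 and to hbl-1 overlapped between genotypes in both fractions. Their differences of means (che-2 minus wild type) were −0.23, −0.93 and −0.44 in non-AMsh and 1.89, 0.71 and 1.65 in AMsh. The AMsh values rest on che-2 E35, with 2, 11 and 9 counts of the earlier-acting gene. Without that library they were 0.60, −0.39 and 0.79, and without both libraries that stood apart −0.030, −0.31 and 1.29. The 2 AMsh ratios that separated thus ran in opposite senses, lin-29 being higher relative to lin-41 in che-2 and lin-46 lower relative to lin-28. Of all genes taken singly, 17% did not overlap between genotypes in AMsh. No such share was computed for ratios, so separation of a few of them is a description only.

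**Figure D4:**
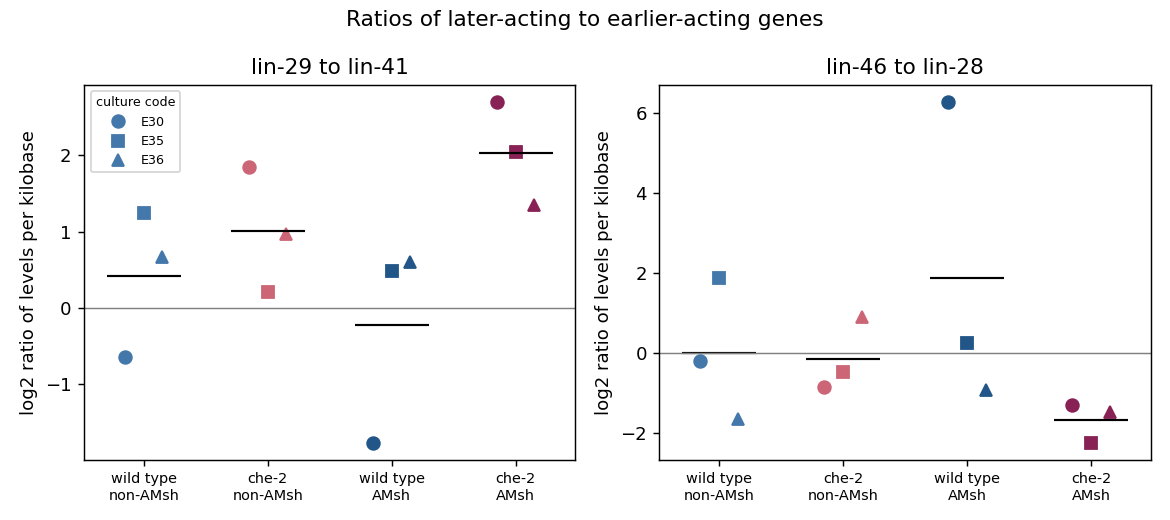
Log2 ratio of levels per kilobase of lin-29 to lin-41 (left) and of lin-46 to lin-28 (right) in each library, with group means as black bars and culture codes as symbols. In AMsh the che-2 libraries lie at 1.35 to 2.70 for lin-29 to lin-41, above the wild type libraries, and at −2.24 to −1.30 for lin-46 to lin-28, below them.

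Stage landmarks were set beside these levels. The adult cuticle collagen gene col-19, a known target of LIN-29, was at 22.4, 92.3 and 288 CPM in wild type non-AMsh and 23.4, 2604 and 697 CPM in che-2 non-AMsh. In AMsh libraries it was at 159, 72.0 and 174 CPM in wild type and 19.4, 3417 and 370 CPM in che-2. che-2 E35 was the highest and E30 among the lowest in both fractions, so the che-2 cultures were not alike, and the genotypes overlapped. The log2 fold change of col-19 was 3.04 in non-AMsh (SE 1.62, edgeR adjusted p = 0.574) and 3.23 in AMsh (SE 1.63, adjusted p = 0.438).

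Sperm genes are switched on by hermaphrodites during the L4 stage. The summed level of 6 of them was 47.5, 95.3 and 255 CPM in wild type non-AMsh and 262, 1394 and 1441 CPM in che-2 non-AMsh, with no overlap. In AMsh libraries the sum was 90.9, 68.2 and 118.7 CPM in wild type and 244, 1061 and 589 CPM in che-2, again with no overlap. In non-AMsh the nearest sums were close, at 255 and 262 CPM. msp-3 and msp-31 made up most of the sum (means of 45.7 and 72.7 CPM in wild type non-AMsh). Taken singly, spe-38 overlapped in both fractions and msp-3 in non-AMsh, while the rest of the 6 did not overlap. Of all genes, 22.2% in non-AMsh and 17% in AMsh did not overlap. Of 15 stage landmarks tested, 0 passed the edgeR test in either fraction (9 at an unadjusted p under 0.05 in each), while DESeq2 called 6 in non-AMsh and 7 in AMsh. Over all genes the unadjusted shares were 10.3% and 12.8%, and the DESeq2 shares 4.51% and 5.29%. The landmarks had medians of 2.90 in non-AMsh and 2.59 in AMsh beside −0.01 and 0.12 over all genes. They mark different stages and include the same 6 sperm genes. The others were vitellogenins, collagens (adult col-19 and col-7, larval col-17), mlt-10 and ins-33. Values were positive for 13 of 15 in non-AMsh and 12 of 15 in AMsh. vit-1 had the largest change (4.49 and 5.22, edgeR adjusted p = 0.241 and 0.161). ins-33, an L1 gene, was lower in che-2 without overlap (−0.95 and −0.87, edgeR adjusted p = 0.301 and 0.298). The smallest p values were those of the sperm genes spe-11 in non-AMsh (6.34 ± 3.47 CPM in wild type, 47.3 ± 22.0 in che-2; change of 2.90 on the log2 scale, SE 0.62, adjusted p = 0.0838) and spe-6 in AMsh (2.49 ± 1.19 CPM in wild type, 12.0 ± 2.76 in che-2; 2.26, SE 0.56, adjusted p = 0.116).

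Orders of cultures are given as a description, with 3 cultures a genotype. In wild type non-AMsh, lin-41 and lin-14 ran from E30 through E35 to E36, the reverse of both col-19 and the sperm gene msp-31, and the other 4 genes had other orders. In che-2 non-AMsh, lin-41 ran from E35 through E36 to E30, as col-19 did, and msp-31 from E36 through E35 to E30. Across genotypes in that fraction, every che-2 culture was below every wild type culture for lin-41 and above it for msp-31, while col-19 overlapped. In wild type AMsh, col-19 and msp-31 ran from E36 through E30 to E35 and lin-41 from E35 through E36 to E30, which is not the reverse. The summed level of 6 markers of hypodermis and seam, the tissue in which lin-29 and lin-41 are best known, moved with the cultures too. dpy-7 and rol-6 made up most of it (means of 346 and 416 CPM in wild type non-AMsh). Between genotypes 5 of the 6 markers were negative in non-AMsh (50.8% of all genes) and 3 of the 6 in AMsh (44.7%). The sum was 727 to 942 CPM in wild type non-AMsh, against 890, 161 and 433 CPM in che-2 E30, E35 and E36. In AMsh libraries it was 718 to 965 CPM in wild type and 934, 155 and 442 CPM in che-2. che-2 E30, with the usual sum of these markers, had the lowest lin-41 in both fractions.

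The summed level of 5 neuron markers, for E30, E35 and E36, was 672, 739 and 478 CPM in wild type non-AMsh and 289, 593 and 314 CPM in che-2 non-AMsh. In AMsh libraries it was 326, 698 and 603 CPM in wild type and 366, 699 and 386 CPM in che-2. The order of cultures was that of lin-41 in 3 of the 4 groups, the exception being wild type non-AMsh. That order was not particular to neurons. The summed body muscle markers and col-19 also had it in both che-2 groups, though not in the wild type groups. egl-21 made up most of the neuron sum (mean 484 CPM in wild type non-AMsh). Between genotypes in non-AMsh all 5 neuron markers had negative values (median −0.63), as had all 3 body muscle markers and 50.8% of all genes. Of the 5, 0 passed with edgeR or DESeq2, and 0 had an unadjusted p under 0.05 (10.3% of all genes). In AMsh 4 of the 5 were negative (44.7% of all genes) and 0 passed with either tool. There 1 had an unadjusted p under 0.05 (12.8% of all genes), rab-3, without overlap (log2 fold change −0.93, edgeR unadjusted p = 0.0336). The part of stage and of tissue make-up in the levels of the heterochronic genes was not tested.

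**Figure D5:**
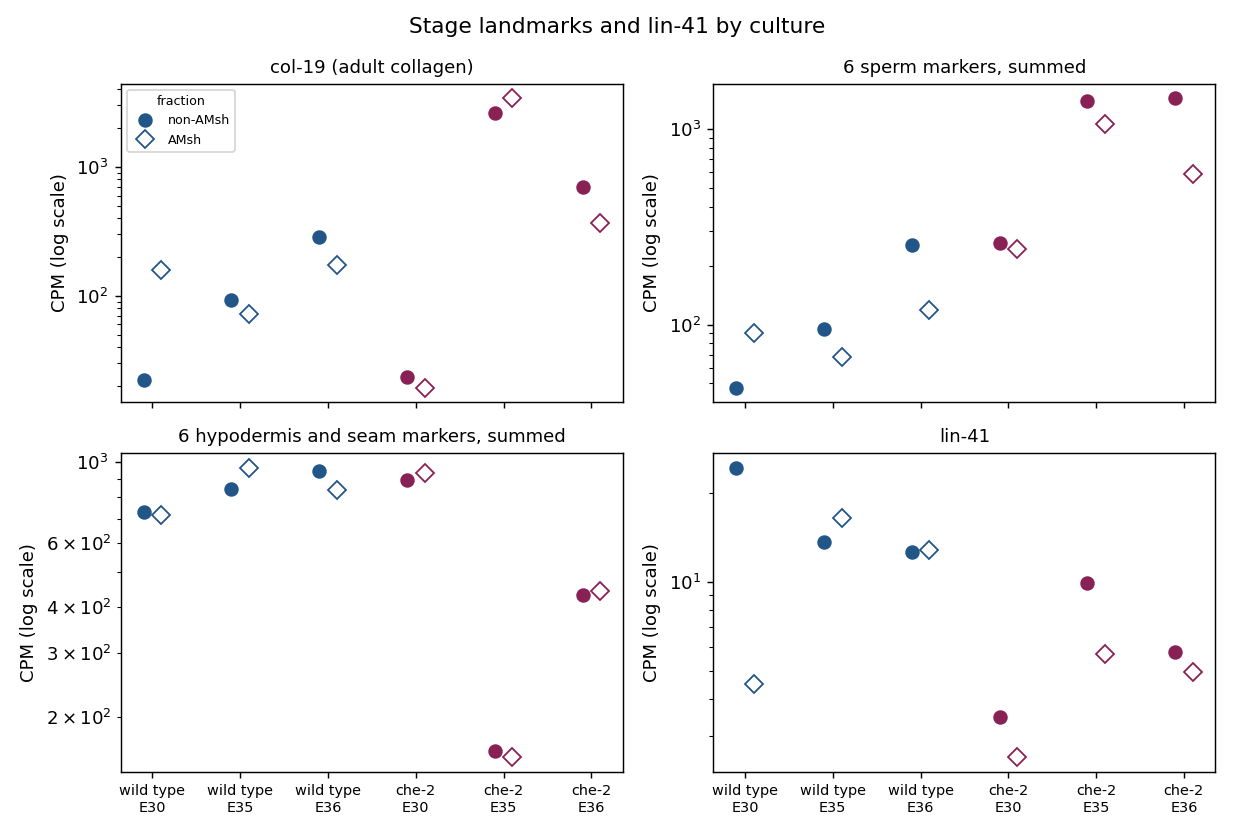
Level (CPM, log axis) of col-19, of 6 sperm markers summed, of 6 hypodermis and seam markers summed and of lin-41 in each culture (filled circles non-AMsh, open diamonds AMsh; blue wild type, red che-2). che-2 E35 has the highest col-19 and the lowest hypodermis and seam sum in both fractions, and che-2 E30 has the lowest lin-41.

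Other genes of the pathway were taken from lists, 28 genes in all beside the 6, of which 23 passed the filter. In each of the 5 comparisons, 0 of the 23 passed with edgeR and 0 with DESeq2. Between genotypes 18 of 23 had a negative log2 fold change in non-AMsh (median −0.53) and 16 of 23 in AMsh (median −0.23), while 50.8% and 44.7% of all genes tested had one. At an unadjusted p under 0.05 there was 1 in non-AMsh and 2 in AMsh, shares below the 10.3% and 12.8% of all genes, and 0 in the remaining comparisons.

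The gene in non-AMsh was daf-12, a nuclear hormone receptor that couples stage progression to steroid signals. Its level was 31.2 ± 13.7 CPM in wild type and 12.4 ± 4.36 CPM in che-2 (SD, n = 3), without overlap (log2 fold change −1.33, SE 0.43, edgeR adjusted p = 0.267). In AMsh daf-12 was at 26.4 ± 8.94 and 17.01 ± 4.27 CPM (−0.63, adjusted p = 0.578). Among other let-7 or lin-4 family targets, pha-4, the FoxA factor of the pharynx, was at 30.8 ± 24.9 CPM in wild type AMsh and 12.0 ± 1.52 CPM in che-2 AMsh (−1.36, SE 0.53, edgeR adjusted p = 0.302). die-1, a zinc finger factor, was at 14.0 ± 3.19 and 6.67 ± 2.73 CPM there, without overlap (−1.06, SE 0.47, adjusted p = 0.370).

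In the list of mRNAs held back by LIN-41, the DM-domain factor dmd-3 was at 1.73 ± 0.844 CPM in wild type non-AMsh and 0 to 0.234 CPM in che-2 non-AMsh (edgeR adjusted p = 0.506), and the smallest p in AMsh was that of mab-3 (6.61 ± 5.00 and 9.02 ± 6.06 CPM, adjusted p = 0.877). mab-10, the NAB cofactor of LIN-29, was at 14.6, 9.89 and 5.33 CPM in wild type non-AMsh and 8.58, 0.472 and 1.92 CPM in che-2 non-AMsh, which overlapped (−1.44, SE 1.35, edgeR adjusted p = 0.810). Both lin-41 and the mRNAs it holds back therefore had negative values in non-AMsh: all 4 of that list, lin-29 included, were below 0, with a median of −1.20 and 0 that passed. In AMsh 2 of the 4 were below 0, with a median of −0.01.

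Of the small RNA and LIN-28 machinery, dcr-1 (Dicer) had the smallest p in both fractions, at 21.01 ± 5.54 and 32.5 ± 8.85 CPM in non-AMsh (0.63, edgeR adjusted p = 0.660) and 23.3 ± 10.3 and 38.5 ± 8.10 CPM in AMsh (0.72, adjusted p = 0.468). Libraries were made from polyadenylated RNA and do not measure mature microRNAs. Reads on the let-7 locus were 30, 35 and 46 in wild type non-AMsh, 22, 0 and 8 in che-2 non-AMsh, 0, 41 and 31 in wild type AMsh and 25, 0 and 9 in che-2 AMsh. Both che-2 E35 libraries and wild type AMsh E30 thus had no count there. The log2 fold change of let-7 was −1.54 in non-AMsh (SE 1.76, edgeR adjusted p = 0.859) and −1.04 in AMsh (adjusted p = 0.854). lin-4 had 0 counts in all 12 libraries.

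Between fractions the smallest p values of the lists were those of let-7 (−0.70), ain-2 (−0.37), kin-20 (0.37), mab-10 (−1.50), pha-4 (0.93) and spe-6 (−0.98) in wild type. In che-2 they were those of let-7 (−0.19), sea-2 (0.61), daf-12 (0.45), mab-3 (1.15), die-1 (−0.62) and spe-38 (1.24). These are log2 AMsh over non-AMsh, each with an edgeR adjusted p of 1.00. For the interaction they were those of let-7 (0.51), sea-2 (0.92), daf-12 (0.70), dmd-3, die-1 (−0.95) and spe-11 (−0.79), again with an adjusted p of 1.00 for each.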

How the data were processed

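RNA was amplified with a SMARTer kit from 0.4 to 5 ng and sequenced on a HiSeq, per the labels' protocols. Per the submitters' processing notes the authors used CASAVA 1.8.2, FastQC, STAR 2.3, WBcel235 and featureCounts. Strandedness, annotation release and read filter are not given in the sources used here, so overlaps between genes were checked. In the deposited table, values are whole-number read counts per gene, not normalised, with summed exon length in bases as a further deposited column. Libraries were assigned by the codes E30, E35 and E36 in their titles and in the header lines. Titles of E36 libraries carry the replicate number 1 in 3 of the 4 groups, and column names of E35 libraries contain E36, so title numbers were not used.

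Gene symbols were found for 43623 of 46726 identifiers; lep-2 was not matched. Counts were scaled by the trimmed mean of M values, filtered with filterByExpr (16690 genes kept) and fitted with edgeR 4.0.16 in R 4.3.3 as 4 group means over 12 libraries (biological coefficient of variation 0.732, with 8 residual degrees of freedom). P values were 2-sided and adjusted by Benjamini-Hochberg over all genes within a comparison, at 0.05. SE is the log2 fold change divided by the square root of F. DESeq2 1.42.0, other scaling, no filter, replicate blocks and leaving out libraries were alternatives. limma 3.58.1, Python 3.11.15, pandas 2.3.3 and matplotlib 3.10.9 were also used. The fit was tested on simulated data, at an adjusted p under 0.05. Of simulated 4-fold changes between genotypes it recovered 24.0% in non-AMsh and 11.0% in AMsh. Between fractions it recovered 29.0% in each genotype. Of 64-fold changes it recovered 86.0% to 91.0%. Most simulated 4-fold changes were thus missed, so a gene that did not pass may still differ. Counting intervals are exact 95% intervals and cover counting error only, as the reads were amplified and carry no molecular identifiers. Ratios had 0.5 added to each count.

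All 6 heterochronic genes are named in every comparison. From each list the genes that passed are named (up to 4), or the one with the smallest p. Members, lists and tests were chosen with earlier results of these data known. The dsRed-negative cells were sorted beside the dsRed-positive ones of each replicate, per the labels' protocols, so fractions are paired by culture. After removal of group means their correlation across genes was 0.203 to 0.273 (wild type) and 0.159 to 0.503 (che-2), highest for the same culture in each case.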

Additional observations from a re-analysis of the deposited data

Results flagged for a closer look

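lin-29 was lower in AMsh than in non-AMsh in all 3 wild type cultures (log2 −3.42, −0.49 and −0.04) and higher in all 3 che-2 cultures (0.40, 1.03 and 0.16), and these opposite directions single it out. The wild type E36 value is close to 0. The test of the difference itself, the interaction term, gave 1.22 (SE 1.07, 95% interval −1.11 to 3.54, unadjusted p = 0.276, edgeR adjusted p = 1.00) and did not pass. Over the 19 alternatives it lay between 0.41 and 1.77, with an adjusted p of 1.00 in each. The exon overlap with hmg-12 limits the lin-29 level.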

How the results depend on the processing

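Of 582 values of the 6 genes under alternatives, 530 kept their direction and side of the threshold, 51 turned (32 on leaving out 1 library) and 1 passed only under the alternative, lin-46 in AMsh with DESeq2, which made the count of called heterochronic genes 1 there. The genotype changes of the 6 genes, other than lin-41 and, in AMsh, lin-46, have intervals that include 0. Between genotypes in non-AMsh the genes called were 24, against 753 with DESeq2, 14 with DESeq2's size factors, 209 with no filter, 11 with the 6 libraries alone, 290 without the 2 libraries that stood apart and 12 without both che-2 E35 libraries (an alternative chosen after seeing the data); leaving out 1 library gave 0 to 102. In AMsh they were 77, against 883 with DESeq2, 198 with no filter, 1 with the 6 libraries alone, 26 without the 2 libraries and 5 without che-2 E35; leaving out 1 library gave 0 to 112. Between fractions in wild type they were 73, against 176 with DESeq2 and 111 without the 2 libraries; leaving out 1 library gave 0 to 91. In che-2 they were 99, against 183 with DESeq2, 0 with the 6 libraries alone and 0 without che-2 E35; leaving out 1 library gave 0 to 127. For the interaction they were 0, against 4 with DESeq2; leaving out 1 library gave 0. The cause of these moves was not tested, apart from fewer libraries where libraries were left out.

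With the code as a replicate block, 167 genes were called between genotypes in non-AMsh and 218 in AMsh. Libraries of the 2 genotypes share only the code: correlations of the same code were 0.187, 0.077 and 0.201 in non-AMsh and 0.015, −0.001 and 0.040 in AMsh. In non-AMsh each library correlated best with its own code, a hint from the data and not from the design. With the culture as a block the log2 fold change of lin-28 between fractions was −0.28 in wild type and −0.22 in che-2, and the interaction was −0.061 for lin-14 and 0.060 for lin-28; the block changed no other direction and no call of the 6 genes. Other turned values between genotypes were −0.29 (lin-28, non-AMsh), 0.20 (lin-28, AMsh) and −0.089 (lin-29, AMsh) without che-2 E35, and −0.54 (lin-29, AMsh) without the 2 libraries. Between fractions, hbl-1 in wild type was at 0.56 without the 2 libraries. lin-28 in che-2, at 0.01, was at −0.055 with DESeq2 and with its size factors, −0.035 with no filter, −0.12 with the code as a block and −0.019 with the 6 libraries alone. The lin-41 interaction, at 0.05, was at −0.033 with DESeq2, −0.032 with its size factors, −0.0225 with no filter and −0.56 without the 2 libraries, and the lin-28 interaction at 0.49 without che-2 E35. The AMsh ratio of lin-29 to lin-14, with a difference of 1.89 between genotypes, was at −0.030 without the 2 libraries (leaving libraries out of ratios was chosen after seeing the data). Leaving out 1 library moved values through 0 as follows: between genotypes in non-AMsh lin-28 from −0.29 to 0.26 and lin-46 from −0.86 to 0.59; in AMsh lin-14 from −1.15 to 0.017, lin-28 from −0.77 to 0.58 and lin-29 from −0.27 to 0.76; between fractions lin-28 from −0.51 to 0.80 and hbl-1 from −1.15 to 0.56 in wild type and lin-28 from −0.58 to 0.48 in che-2; in the interaction lin-14 from −0.41 to 0.76, lin-28 from −0.87 to 0.52 and lin-41 from −0.33 to 0.44.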

Other observations

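Correlations of log2 levels are a description over the 12 libraries, which share depth and culture within the groups. Pearson r was 0.86 for lin-28 and hbl-1, 0.83 for lin-14 and hbl-1 and 0.72 for lin-14 and lin-28. lin-41 stood further off, at 0.34 with lin-28, 0.51 with lin-14 and 0.55 with hbl-1. The later-acting lin-29 had r = 0.68 with hbl-1, 0.60 with lin-28 and 0.34 with lin-14. It was thus nearer to hbl-1 and lin-28 than lin-41 was. lin-46 and lin-29 had r = −0.53. Of the landmarks, col-19 had r between −0.50 (lin-14) and −0.01 (lin-41) with the 6 genes. The wild type AMsh E30 and che-2 AMsh E35 libraries hold the lowest lin-14, lin-28 and hbl-1 levels and weigh heavily in the first 3 values.

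The genes with the pattern most like each heterochronic gene, among 10400 or 10401 others with a mean of at least 5 CPM, were des-2 (r = 0.97), rpy-1 (0.96) and C49C3.4 (0.95) for lin-14. For lin-28 they were Y49F6B.9 (0.96), hpo-27 (0.93) and rom-4 (0.93). hbl-1 was nearest to mec-18 (0.96), WBGene00022219 (0.94) and best-18 (0.93). The nearest to lin-41 were mec-7 (0.93), pgp-10 (0.91) and grd-10 (0.90). lin-46 was nearest to Y45F10D.2 (0.94), unc-58 (0.92) and gip-1 (0.92), and lin-29 to K07A1.3 (0.98), set-16 (0.97) and fbxa-67 (0.97).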
